A study of Homo sapiens with 28 samples.

Results

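The genes described here are NR3C1, which encodes the glucocorticoid receptor, and 7 coregulators of steroid receptors (NCOA1, NCOA2, NCOA3, NCOA4, NCOR1, EP300 and CREBBP). They were taken by gene symbol and are 8 of 61815 genes in the count table. Their RNA was measured in LNCaP, an androgen-responsive prostate cancer line. LNCaP is 1 cell line, so no result here extends over lines. All cells, the controls included, were first kept for 72 h in androgen-poor medium made with charcoal-stripped serum. In the first experiment they were then treated for 24 h with 0.1% DMSO as vehicle, with 1 µM Senexin B, with 0.1 nM R1881, or with R1881 and Senexin B together, with 3 libraries a group. In the second experiment the treatment lasted 72 h, with 0.1% DMSO, 500 nM SNX631, 1 nM R1881, or R1881 and SNX631 together, with 4 libraries a group. R1881 is a man-made androgen. CDK8 and CDK19, the kinases of the Mediator complex, are the targets of both Senexin B and SNX631, which belong to unrelated chemical types. The study's text gives another dose of Senexin B than the labels, and the dose of the labels is used here. Time, androgen dose and inhibitor all differ between the experiments, so their parts in any difference between the experiments cannot be told apart.

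Steroid receptors are transcription factors that bind DNA once they hold their hormone. They then recruit coactivators. NCOA1, NCOA2 and NCOA3 form the p160 family (also called steroid receptor coactivators), which docks on the hormone-bound receptor and brings in EP300 and CREBBP, a pair of related enzymes that acetylate histones. NCOR1 is a corepressor: it links receptors that hold no hormone or an antagonist to a histone deacetylase. NCOA4 is structurally unrelated to the p160 family, was first described as a receptor coactivator, and also delivers ferritin to autophagy. The glucocorticoid receptor recognises DNA elements much like those used by androgen signaling. In prostate cancer it is known to be repressed by androgen and to rise in some tumors treated with anti-androgens.

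In the GENCODE annotation of GRCh38 all 8 are protein-coding genes, of which NCOA2 is placed further on. NR3C1 lies on chromosome 5 (143277931 to 143435512, minus strand) and NCOA1 on chromosome 2 (24491914 to 24770702, plus strand). NCOA3 lies on chromosome 20 (47501902 to 47656877, plus strand), NCOA4 on chromosome 10 (46005088 to 46030714, minus strand) and NCOR1 on chromosome 17 (16029157 to 16218185, minus strand). EP300 lies on chromosome 22 (41091786 to 41180079, plus strand) and CREBBP on chromosome 16 (3725054 to 3880726, minus strand). Exons of 3 of them meet exons of genes on the opposite strand, over 96 bases for NCOA3 (SULF2), 321 and 188 bases for NCOR1 (PIGL and AC002553.1) and 107 bases for EP300 (AL035658.1). The libraries were made with a directional kit, but whether counting used strand is not given in the sources used here, so reads of such bases may belong to either gene. EP300 also holds the microRNA gene MIR1281, and its count had a fractional part in 13 of 28 libraries, against 0 to 2 libraries for the other 7 genes. The pseudogenes of NCOA4 and NCOR1 had at most 5 counts in any library.

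3 promoter windows are shown because they belong to a p160 gene that was lowered in every group it was compared in, to another p160 gene with a smaller response, and to a gene that R1881 raised. Each is the reference sequence upstream of a start site (RefSeq, GRCh38.p14), at chr20:47501637-47501886 for NCOA3 (plus strand), chr2:24491004-24491253 for NCOA1 (plus strand) and chr10:46030715-46030873 for NCOA4 (minus strand, 159 bases, without 91 bases next to the start site that overlap an exon). Capitals mark every match to the GC box GGGCGG on either strand, the motif that Sp1-type factors bind.
NCOA3: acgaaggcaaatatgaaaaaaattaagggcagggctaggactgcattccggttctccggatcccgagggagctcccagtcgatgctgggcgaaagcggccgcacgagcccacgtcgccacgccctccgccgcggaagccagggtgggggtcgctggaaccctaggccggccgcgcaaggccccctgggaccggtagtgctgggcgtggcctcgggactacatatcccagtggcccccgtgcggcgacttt
NCOA1: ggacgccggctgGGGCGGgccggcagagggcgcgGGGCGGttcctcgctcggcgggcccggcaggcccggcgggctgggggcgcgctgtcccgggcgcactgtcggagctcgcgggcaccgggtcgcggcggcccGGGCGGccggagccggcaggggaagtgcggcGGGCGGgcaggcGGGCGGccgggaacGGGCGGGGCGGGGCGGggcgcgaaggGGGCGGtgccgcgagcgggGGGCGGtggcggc
NCOA4: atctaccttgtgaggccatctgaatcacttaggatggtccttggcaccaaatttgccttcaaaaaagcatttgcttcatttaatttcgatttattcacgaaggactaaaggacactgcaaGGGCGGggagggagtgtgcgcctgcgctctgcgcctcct
The NCOA1 window held 10 matches, the NCOA4 window 1 and the NCOA3 window 0. Further windows of NCOA1 and NCOA4, at other start sites, held fewer matches or none, so these counts belong to the start sites shown. Windows were at hand for 7 of the 8 genes, 18 windows in all, since some genes have several start sites. Of these 18, 10 held a GC box, against 42.6% of all 35116 promoter windows. The 10 belonged to CREBBP, NCOA1, NCOA4 and NR3C1 only. NR3C1 had the most windows of any of the genes, and windows of 1 gene are not independent. The hexamer AGAACA, an arm of the element that androgen and glucocorticoid signaling share, was found in 1 of the 18 windows, in CREBBP, against 12.4% of all windows. The full element, that hexamer and its reverse complement with 3 bases between, was in 0 of the 18 and in 0.00285% of all windows. The ETS motif CCGGAAG was in 2 of the 18, in NCOR1 and NR3C1, against 8.52% of all windows. All motifs were searched on both strands. A match is a description of the letters in the window and not a bound site.

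The libraries held 9846481 to 15248316 counts, except 1 vehicle library at 24 h (replicate 3) with 33809270. Replicates spread by a common coefficient of biological variation of 2.72% at 24 h and 2.38% at 72 h, and no pair of replicates differed by less than sampling noise. The luminal prostate markers summed to 2709 to 4879 CPM (counts per 1000000 counts of the effective library size) and were led by FOLH1, with KLK3 at 0.698 to 147 CPM. Basal markers summed to at most 0.701 CPM with KRT5 at 0 in every library, leukocyte markers to at most 1.57 CPM with CD3E at 0, and neuroendocrine markers to at most 1.46 CPM with INSM1 at 0. The 6 stromal markers summed to 10.2 to 38.5 CPM, most of it COL1A1, with DCN at no more than 1 count. In bulk RNA, fewer cells of a type and less RNA per cell cannot be told apart.

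The 7 coregulators were all well expressed and NR3C1 was close to absent. Per kilobase of exon, NCOA4 was the most abundant in vehicle at 24 h, at 63.7 ± 1.60 CPM per kb (SD, n = 3). NCOA2 followed at 17.6 ± 0.636 CPM per kb. NCOR1, NCOA1 and EP300 lay together at 12.6, 12.5 and 12.4 CPM per kb. CREBBP stood at 6.81 CPM per kb and NCOA3 at 6.32 ± 0.0970 CPM per kb, the lowest of the coregulators. NR3C1 stood at 0.0132 ± 0.00745 CPM per kb. The raw counts behind these levels ran from 252 to 9216 per library for the coregulators and from 0 to 8 for NR3C1. The plot of levels by library shows all 8 genes over the 28 libraries.

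**Figure D1:**
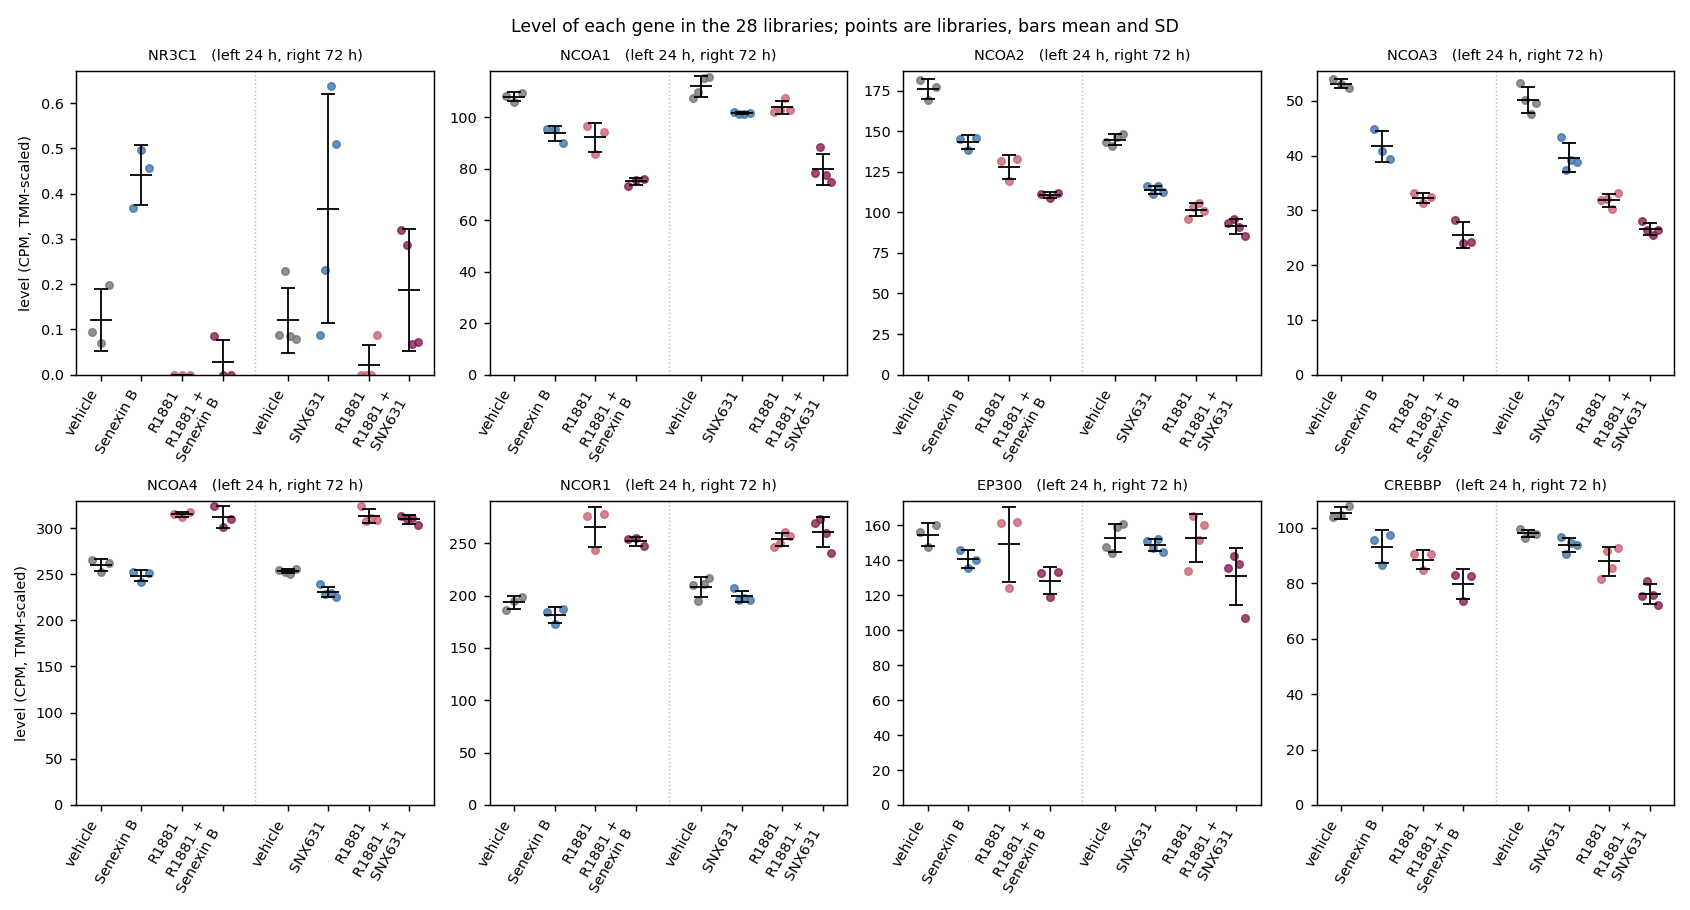
Level of each gene (CPM scaled by effective library size, linear axis from 0) in the 8 groups, the 24 h experiment on the left of each panel and the 72 h experiment on the right. Points are libraries and bars are the mean and SD. NCOA3 steps down from vehicle (52.4 to 54.0 CPM at 24 h) to R1881 with inhibitor (24.0 to 28.2 CPM), NCOA4 and NCOR1 are higher in every R1881 group than in vehicle, and NR3C1 stays under 0.7 CPM in every library.

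The comparison of R1881 with vehicle asks how androgen moved these genes in androgen-deprived cells. R1881 lowered NCOA1, NCOA2, NCOA3 and CREBBP and raised NCOA4 and NCOR1 at 24 h, with EP300 not past the limit. A difference was taken to pass at a false discovery rate (FDR, Benjamini-Hochberg over all genes tested, edgeR quasi-likelihood test) under 0.01, and a gene was called where the fold was also over 1.5. Of the 7 coregulators tested, 2 rose and 4 fell at 24 h, against 48.4% of the 15948 genes tested that passed in either direction (26.3% higher, 22.1% lower). At 72 h 2 rose and 3 fell, against 52.2% of 16074 (27.6% higher, 24.6% lower). Only NCOA3 was called, in both experiments, against 19% of genes called at 24 h and 19.8% at 72 h. The share of coregulators called is thus near that among all genes, and so is the size of their changes. The median size of the log2 fold change was 0.28 over the coregulators and 0.26 over all genes at 24 h, and 0.29 and 0.26 at 72 h. Groups did not overlap for 6 of 7 coregulators at 24 h (62.1% of all genes) and for 5 of 7 at 72 h (54.9% of all genes).

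NCOA3, a p160 coactivator amplified in some breast cancers, had the largest response of the 7 coregulators. At 24 h it stood at 54.0, 53.0 and 52.4 CPM with vehicle, at 44.9, 40.8 and 39.4 with Senexin B, at 33.1, 31.3 and 32.5 with R1881 and at 28.2, 24.0 and 24.2 with both. At 72 h it stood at 53.3, 50.1, 47.7 and 49.6 CPM with vehicle, at 43.4, 37.3, 39.1 and 38.8 with SNX631, at 31.9, 32.1, 30.2 and 33.1 with R1881 and at 28.1, 26.4, 25.5 and 26.4 with both. In both experiments the order was vehicle, inhibitor, R1881, both, and no group overlapped its neighbour in that order. The log2 fold change under R1881 was -0.71 ± 0.059 (SE) at 24 h (FDR 2.76e-12, edgeR) and -0.66 ± 0.051 at 72 h (FDR 5.57e-14, edgeR). With R1881 and inhibitor together, NCOA3 was at 48.0% of its vehicle mean at 24 h and at 53.0% at 72 h. The summed stromal markers moved in the same order, from 27.9 to 30.9 CPM with vehicle to 16.2 to 18.0 with R1881 and 10.2 to 12.3 with both at 24 h, and from 34.7 to 38.5 with vehicle to 19.0 to 26.4 with R1881 and 14.4 to 17.2 with both at 72 h. Their part in these results was not tested.

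NCOA2 (chromosome 8, 70109762 to 70403805, minus strand) had the highest level per kilobase of the p160 genes with vehicle, and followed the same order. At 24 h it stood at 181.7, 169.1 and 177.3 CPM with vehicle, at 145.1, 138.2 and 146.0 with Senexin B, at 131.8, 119.6 and 133.0 with R1881 and at 111.1, 108.6 and 111.9 with both. At 72 h it stood at 143.5, 140.7, 146.5 and 148.1 CPM with vehicle, at 116.1, 111.1, 116.1 and 112.5 with SNX631, at 96.1, 103.5, 105.6 and 100.8 with R1881 and at 93.4, 95.8, 90.8 and 85.4 with both. No neighbours in the order overlapped, although the gap between R1881 and R1881 with SNX631 was narrow (lowest of the former 96.1, highest of the latter 95.8 CPM). With R1881 at 72 h NCOA2 stood at 10.1 and NCOA1 at 12.0 CPM per kb, so NCOA2 was not the highest p160 gene in every group. The log2 fold change under R1881 was -0.46 ± 0.040 at 24 h (FDR 1.07e-11, edgeR) and -0.51 ± 0.035 at 72 h (FDR 8.99e-16, edgeR).

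NCOA1, the first p160 coactivator to be described, was moved less by R1881 alone. At 24 h it stood at 108.2, 106.1 and 109.7 CPM with vehicle, at 95.4, 95.6 and 90.2 with Senexin B, at 96.7, 85.9 and 94.3 with R1881 and at 73.4, 75.7 and 76.2 with both. At 72 h it stood at 107.5, 109.9, 115.3 and 115.6 CPM with vehicle, at 102.0, 101.3, 101.5 and 101.9 with SNX631, at 102.0, 103.1, 107.7 and 102.9 with R1881 and at 78.2, 88.5, 77.7 and 75.0 with both. The combined group lay below all others in both experiments, while R1881 and inhibitor alone overlapped each other. The log2 fold change under R1881 was -0.23 ± 0.042 at 24 h (FDR 2.06e-05, edgeR). At 72 h it was -0.11 ± 0.038 and missed the limit (FDR 0.0123, edgeR), which it passed when 1 vehicle library (replicate 1, FDR 0.00548) or 1 R1881 library (replicate 3, FDR 0.00814) was left out. It also passed without replicate 2 (FDR 0.00356) or replicate 4 (FDR 0.00685) of R1881 with SNX631.

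NCOR1, the corepressor, moved the other way. At 24 h it stood at 186.4, 194.9 and 198.8 CPM with vehicle, at 184.3, 173.2 and 186.7 with Senexin B, at 275.7, 243.1 and 277.5 with R1881 and at 253.6, 254.7 and 247.0 with both. At 72 h it stood at 209.8, 194.6, 211.3 and 216.6 CPM with vehicle, at 206.9, 196.0, 198.1 and 196.0 with SNX631, at 246.7, 250.5, 260.9 and 256.8 with R1881 and at 269.6, 273.5, 259.5 and 240.9 with both. Each group with R1881 lay above each group without it, and within either pair the groups overlapped. Under R1881 its log2 fold change was 0.45 ± 0.041 at 24 h (FDR 2.91e-11, edgeR) and 0.29 ± 0.034 at 72 h (FDR 2.13e-09, edgeR).

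NCOA4, the ferritin autophagy receptor, also rose. At 24 h it stood at 265.1, 252.5 and 261.7 CPM with vehicle, at 251.9, 241.9 and 251.6 with Senexin B, at 314.7, 312.2 and 317.5 with R1881 and at 324.4, 301.5 and 309.6 with both. At 72 h it stood at 255.1, 252.5, 250.4 and 256.0 CPM with vehicle, at 239.1, 228.9, 229.7 and 225.2 with SNX631, at 324.3, 307.3, 311.3 and 309.1 with R1881 and at 313.5, 309.8, 311.0 and 303.1 with both. The groups with R1881 overlapped each other and lay above the groups without it. Under R1881 it changed by 0.28 ± 0.033 on the log2 scale at 24 h (FDR 1.37e-08, edgeR) and 0.30 ± 0.025 at 72 h (FDR 2.42e-13, edgeR).

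Of the paired acetyltransferases, CREBBP fell under R1881 and EP300 did not pass, although the difference between the genes was not tested. EP300 stood at 156.1, 147.6 and 160.4 CPM with vehicle and at 161.6, 124.2 and 161.8 with R1881 at 24 h, and at 147.6, 144.4, 159.2 and 160.6 with vehicle and at 133.9, 165.5, 151.4 and 160.2 with R1881 at 72 h. The groups overlapped in both experiments, and replicate 2 of R1881 at 24 h lay below every other library with vehicle or R1881 alone. The log2 fold change was -0.06 (95% interval -0.18 to 0.06, FDR 0.41, edgeR) at 24 h and 0.0028 (-0.11 to 0.12, FDR 0.969) at 72 h. Without that library the value at 24 h was 0.067 (FDR 0.191). The same library was also the lowest of its group for NCOA1, NCOA2, NCOA3, NCOA4, NCOR1 and CREBBP.

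CREBBP ranged from 103.8 to 107.9 CPM with vehicle and from 84.8 to 90.5 with R1881 at 24 h, and from 96.4 to 99.7 with vehicle and from 81.7 to 92.9 with R1881 at 72 h. Vehicle and R1881 did not overlap in either experiment. Its log2 fold change was -0.26 ± 0.047 at 24 h (FDR 1.65e-05, edgeR) and -0.15 ± 0.039 at 72 h (FDR 0.000803, edgeR). Per 100 CREBBP counts there were 140.9 to 150.4 EP300 counts with vehicle and 146.6 to 178.8 with R1881 at 24 h, ranges that overlapped.

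**Figure D2:**
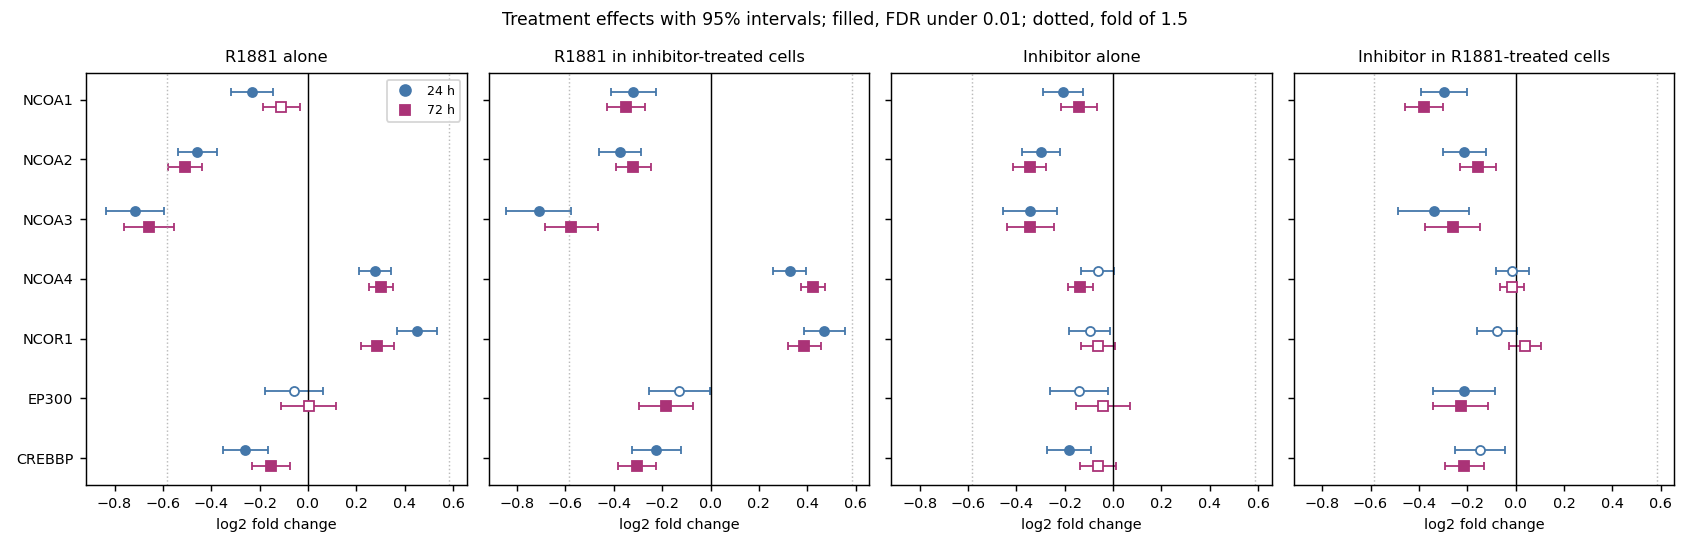
Log2 fold change of the 7 tested coregulators with its 95% interval in 4 comparisons, with circles for the 24 h and squares for the 72 h experiment. Filled symbols passed an FDR of 0.01 and dotted lines mark a fold of 1.5. NCOA3 lies past the line under R1881 (-0.71 and -0.66), NCOA4 and NCOR1 lie to the right of 0 under R1881, and no symbol lies past the line for an inhibitor.

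Since both sides of a ratio of counts come from 1 library, the balance of corepressor to p160 coactivators does not depend on how libraries are scaled. At 24 h there were 54.2 to 59.4 NCOR1 counts per 100 counts of NCOA1, NCOA2 and NCOA3 together with vehicle, 63.1 to 67.7 with Senexin B, 102.7 to 106.8 with R1881 and 116.4 to 122.3 with both. At 72 h there were 64.7 to 69.1 with vehicle, 77.2 to 79.1 with SNX631, 104.9 to 108.4 with R1881 and 128.9 to 135.0 with both. The 4 groups of each experiment did not overlap at any step. This ratio was put together after the values of its genes were seen and carries no test. The p160 genes did not move in proportion. The share of NCOA3 in the p160 counts went from 15.8 ± 0.368% (SD, n = 3) with vehicle to 12.8 ± 0.375% with R1881 at 24 h, and from 16.4 ± 0.934% to 13.4 ± 0.723% (n = 4) at 72 h. The share of NCOA1 went from 32.0 ± 0.489% to 36.5 ± 0.386% at 24 h, and the shares at 72 h were 36.5 ± 0.833% and 43.8 ± 0.581%. Counts are not corrected for gene length here, so only their movement between groups can be read.

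**Figure D3:**
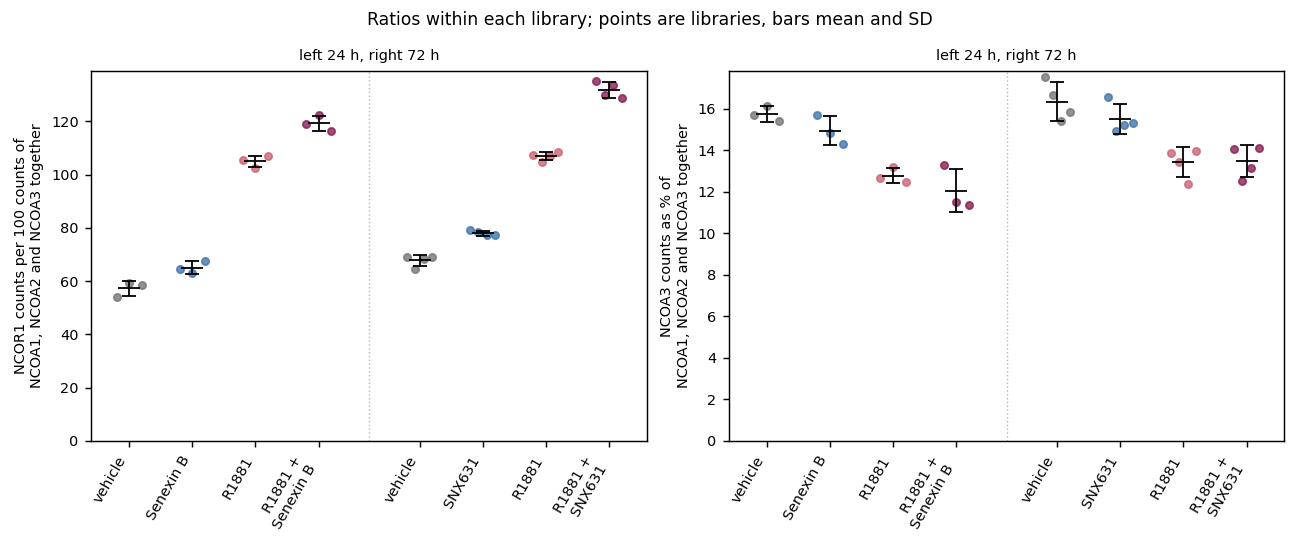
NCOR1 counts per 100 counts of the 3 p160 genes (left) and NCOA3 counts as a percent of p160 counts (right) in each library, by group, with the mean and SD as bars. The left panel climbs without overlap from vehicle (54.2 to 59.4 at 24 h) to R1881 with inhibitor (116.4 to 122.3), and on the right the groups with R1881 lie below the groups without it.

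The comparison of R1881 in inhibitor-treated cells asks how androgen moved the same genes when Mediator kinases were inhibited. Under Senexin B 2 coregulators rose and 4 fell (47.5% of all genes passed, 26.3% higher and 21.2% lower), and under SNX631 2 rose and 5 fell (57.3% of all genes passed, 29.8% higher and 27.5% lower). All 7 had groups that did not overlap in each experiment, against 62.3% of all genes at 24 h and 57.8% at 72 h. NCOA3 fell by 0.71 on the log2 scale under Senexin B and was called, against 18.9% of all genes. Under SNX631 its log2 fold change of -0.58 ± 0.053 fell just short of the fold limit, so 0 of 7 were called, against 22% of all genes. With 1 SNX631 library (replicate 2) or 1 library of R1881 with SNX631 (replicate 1) left out, NCOA3 was called there too. EP300 passed under SNX631 (-0.18 ± 0.055, FDR 0.0037, edgeR) and missed the limit under Senexin B (-0.13 ± 0.062, FDR 0.0743, edgeR). With both agents at 72 h EP300 stood at 135.9, 142.7, 138.2 and 106.8 CPM, against 150.8, 147.2, 152.3 and 144.7 with SNX631 alone. Replicate 4 of the combined group was the lowest of all 28 libraries for EP300, and without it the log2 fold change was -0.10 (FDR 0.0421). EP300 under SNX631 also missed the limit without SNX631 replicate 1 (FDR 0.0106) or 3 (FDR 0.0143) and in DESeq2 (FDR 0.0495). Under Senexin B EP300 passed without R1881 replicate 2 (FDR 0.00486).

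The comparison of inhibitor with vehicle asks what the kinase inhibitors did without androgen. Senexin B at 1 µM for 24 h lowered NCOA1, NCOA2, NCOA3 and CREBBP, and SNX631 at 500 nM for 72 h lowered NCOA1, NCOA2, NCOA3 and NCOA4. So 4 of 7 coregulators fell and 0 rose in each, against 25.1% of all genes that passed in either direction for Senexin B and 26.9% for SNX631, with 11.7% and 12.5% of all genes lower. None was called, against 3.79% and 4.77% of all genes. Groups did not overlap for 6 of 7 coregulators with Senexin B (45.8% of all genes) and for 4 of 7 with SNX631 (33% of all genes). Dose, time and compound differ between these sets, so the values stand side by side with no comparison of the compounds.

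NCOA3 had the same log2 fold change, -0.34, with Senexin B (SE 0.054, FDR 7.24e-06, edgeR) and with SNX631 (SE 0.048, FDR 3.57e-07, edgeR). NCOA2 had -0.30 ± 0.039 with Senexin B (FDR 2.91e-07, edgeR) and -0.34 ± 0.034 with SNX631 (FDR 9.59e-11, edgeR). NCOA1 had -0.21 ± 0.041 with Senexin B (FDR 0.000166, edgeR) and -0.14 ± 0.038 with SNX631 (FDR 0.0028, edgeR). The p160 coactivators thus fell under each inhibitor. NCOA1 with SNX631 missed the limit when vehicle replicate 3 (FDR 0.0135) or 4 (FDR 0.0162) was left out. CREBBP had -0.18 ± 0.045 with Senexin B (FDR 0.00177, edgeR), and missed the limit without vehicle replicate 3 (FDR 0.0247), the most deeply sequenced library, or without Senexin B replicate 2 (FDR 0.0435). With SNX631 CREBBP had -0.06 (95% interval -0.14 to 0.014, FDR 0.203). NCOA4 had -0.14 ± 0.025 with SNX631 (FDR 4.18e-05, edgeR) and -0.06 with Senexin B (interval -0.13 to 0.0045, FDR 0.142). NCOR1 passed with neither, with intervals of -0.18 to -0.012 for Senexin B and -0.13 to 0.0066 for SNX631. EP300 also passed with neither (FDR 0.0576 and 0.609), although for Senexin B it passed without R1881 replicate 2 of that experiment (FDR 0.00429), with no filter on low counts (FDR 0.00133) and with a replicate block (FDR 0.00738).

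In cells that also had R1881, the inhibitors lowered the p160 coactivators again. With Senexin B 4 coregulators fell and 0 rose, against 22.7% of all genes that passed in either direction, and with SNX631 5 fell and 0 rose, against 33.1%. The shares of all genes that were lower were 9.99% and 15.4%. None was called, against 3.12% and 4.12% of all genes. Groups did not overlap for 4 of 7 in each, against 42.1% and 37.7% of all genes. NCOA1 had a log2 fold change of -0.30 ± 0.046 with Senexin B (FDR 7.55e-06, edgeR) and -0.38 ± 0.039 with SNX631 (FDR 3.69e-10, edgeR). NCOA3 had -0.34 ± 0.071 (FDR 0.000359, edgeR) and -0.26 ± 0.057 (FDR 0.000255, edgeR). NCOA2 had -0.21 ± 0.043 (FDR 0.000262, edgeR) and -0.15 ± 0.036 (FDR 0.000621, edgeR). NCOA4 and NCOR1, which R1881 raised, did not pass for either inhibitor, with log2 fold changes between -0.08 and 0.04. NCOR1 with Senexin B passed only without R1881 replicate 2 (-0.15, FDR 0.00174).

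CREBBP in R1881-treated cells passed with SNX631 (-0.21 ± 0.039, FDR 2.91e-05, edgeR) and missed the limit with Senexin B (-0.15 ± 0.051, FDR 0.0236, edgeR), which it passed without R1881 replicate 2 (FDR 0.00625). EP300 passed with both, at -0.21 ± 0.063 with Senexin B (FDR 0.00842, edgeR) and -0.23 ± 0.056 with SNX631 (FDR 0.000972, edgeR), although its groups overlapped in each. With Senexin B EP300 missed the limit when any of 5 libraries was left out (vehicle replicate 3, R1881 replicates 1 and 3, and R1881 with Senexin B replicates 2 and 3), with an FDR of up to 0.0852, and in DESeq2 (FDR 0.0822). With SNX631 it missed the limit without R1881 replicate 2 (FDR 0.0132) and in DESeq2 (FDR 0.0244).

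The interaction term asks whether the R1881 effect differed between inhibitor-treated and vehicle-treated cells. At 24 h 0 of 7 coregulators passed in edgeR, and 0 had an unadjusted p under 0.05, against 2.09% and 16.7% of all genes. At 72 h NCOA1 and NCOA2 passed, against 7.09% of all genes, in opposite directions. NCOA1 had -0.24 ± 0.054 (FDR 0.00208, edgeR): R1881 changed it by -0.11 with vehicle and by -0.35 with SNX631. NCOA2 had 0.19 ± 0.049 (FDR 0.00709, edgeR): R1881 changed it by -0.51 with vehicle and by -0.32 with SNX631. At 24 h the values were -0.09 for NCOA1 (95% interval -0.22 to 0.037) and 0.08 for NCOA2 (-0.03 to 0.20). NCOA1 passed with each library left out. NCOA2 did not, since its FDR rose past the limit in 9 of 16 such fits (vehicle replicates 3 and 4, SNX631 replicates 2 and 4, R1881 replicates 1 and 4, and R1881 with SNX631 replicates 1, 2 and 3), to at most 0.0242. NCOA4 had 0.12 ± 0.035 (FDR 0.0186, edgeR), and passed without SNX631 replicate 1 (FDR 0.00743), R1881 replicate 1 (FDR 0.00524) or R1881 with SNX631 replicate 4 (FDR 0.0097). The other 4 missed the limit in edgeR, with FDR values between 0.064 and 0.557. They were CREBBP at -0.15 ± 0.055, EP300 at -0.19 ± 0.078, NCOR1 at 0.10 ± 0.047 and NCOA3 at 0.08 ± 0.075. In edgeR 6 of 7 coregulators, all but NCOA3, had an unadjusted p under 0.05 at 72 h. The share of all genes at that p was not taken for this term.

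Effects in the 72 h and 24 h experiments were set against each other in a fit of all 28 libraries. The R1881 effect, the inhibitor effect and the inhibitor effect in R1881-treated cells each passed for 0 of 7 coregulators in edgeR, against 7.54%, 2.21% and 2.72% of all genes, with 2, 1 and 1 of 7 at an unadjusted p under 0.05, against 25.6%, 17.2% and 18.6% of all genes. The R1881 effect on NCOR1 came nearest, at -0.16 ± 0.056 for 72 h minus 24 h (FDR 0.046, edgeR). It passed when the low R1881 library at 24 h (replicate 2) was left out, at -0.23 (FDR 0.00194). For NCOA3 the difference in R1881 effect was 0.06, with a 95% interval of -0.10 to 0.22.

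NR3C1 had too few counts for the filter and was not part of the fits. At 24 h its counts were 1, 1 and 7 with vehicle, 5, 6 and 6 with Senexin B, 0, 0 and 0 with R1881 and 1, 0 and 0 with both. At 72 h they were 1, 3, 1 and 1 with vehicle, 1, 3, 8 and 6 with SNX631, 0, 0, 0 and 1 with R1881 and 4, 4, 1 and 1 with both. The 7 counts came from the vehicle library with the most reads, where they made 0.199 CPM. The groups with inhibitor alone held the most counts in each experiment and the groups with R1881 alone the fewest. Only vehicle and Senexin B were separated without overlap among neighbours in the order of group means.

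Pooled over each group and set against depth, NR3C1 was higher with Senexin B than with vehicle by a ratio of 2.93 (95% exact interval 1.23 to 7.45, 17 against 9 counts), and by a ratio of 5.45 without the deep vehicle library. With SNX631 the ratio to vehicle was 3.02 (1.15 to 9.30, 18 against 6 counts), and 2.26 (0.744 to 7.57) without SNX631 replicate 3. R1881 at 24 h held 0 counts against 9, with an interval of the ratio from 0 to 0.900. With a floor of 3 counts over the group in place of the 0, R1881 was 1.69-fold lower than vehicle. Both values rest on the deep vehicle library, without which the counts were 0 against 2 and the interval ran from 0 to 3.91. At 72 h R1881 held 1 count against 6, a ratio of 0.185 (0.00402 to 1.52). The 1 count came from R1881 replicate 4, and without that library the counts were 0 against 6. R1881 was then 1.34-fold lower at the floor, but the interval of the ratio ran from 0 to 1.27 and so included 1. Under Senexin B the ratio for R1881 was 0.065 (0.00155 to 0.415, 1 against 17 counts), or 0.102 without replicate 3 of the combined group. Without replicate 1 of the combined group, which held the 1 count, the counts were 0 against 17. That was 3.40-fold lower at the floor, with an interval of the ratio from 0 to 0.403. Under SNX631 the ratio for R1881 was 0.495 (0.204 to 1.13, 10 against 18 counts). SNX631 in R1881-treated cells gave 10 counts against 1, a ratio of 8.08 (1.15 to 351). Without R1881 replicate 4, which held that 1 count, the counts were 10 against 0. That was 2.00-fold higher at the floor, with an interval of the ratio from 1.35 upward. Without R1881 replicate 2 the ratio was 5.88 (0.836 to 255), so its interval did not stay above 1. These intervals cover counting error only, and the folds at the floor leave out the counting error of the other group.

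Across libraries, the 8 comparisons of NR3C1 could not reach 0.05 in an exact two-sided permutation test after adjustment over the 8, since the smallest adjusted p these group sizes allow is 0.0571 (lowest found 0.152). With 3 libraries against 3 the smallest unadjusted p is 0.1. At 72 h, where it is 0.0286, the unadjusted exact permutation p was 0.0571 for SNX631, 0.0857 for SNX631 in R1881-treated cells, 0.114 for R1881 and 0.314 for R1881 under SNX631. In an edgeR fit with no filter on low counts, R1881 under Senexin B passed (FDR 0.0036), and R1881 at 24 h did not (FDR 0.0471). The inhibitor effects had an FDR of 0.132 for Senexin B and 0.116 for SNX631 in that fit.

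Over the 8 group means, the genes with the pattern most like NR3C1 among 10021 compared were HERPUD2-AS1 (Pearson r of 0.983), TOMM70 (0.982), MNT (0.977), ARL16 (0.975) and GOPC (0.975). TOMM70, a receptor for protein import into mitochondria, stood at 170.6 CPM with vehicle, 199.3 with Senexin B, 152.3 with R1881 and 157.6 with both at 24 h. These likenesses rest on the few NR3C1 counts and on 8 points that share 2 experiments. Among the coregulators, the group means of NCOA2 and NCOA3 had an r of 0.99 and those of NCOA4 and NCOR1 an r of 0.96 once centred within each experiment, while NCOA3 and NCOR1 had -0.83. The points share libraries, scaling and treatments.

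Lists of related genes show where these 8 stand in their pathway. Among 20 other coactivators tested, 3 were called under R1881 in each experiment (15%, against 19% of all genes at 24 h and 19.8% at 72 h), with CITED1 and PPARGC1B higher and NCOA7 lower in both. NCOA7, an estrogen-receptor-associated protein with an oxidation resistance domain, had log2 fold changes of -1.25 ± 0.061 at 24 h and -1.66 ± 0.059 at 72 h. PPARGC1B, a coactivator of mitochondrial genes, had 0.62 in each. CITED1, which binds EP300 and CREBBP, rested on a mean of 1.23 CPM or less. The list's median log2 fold change was 0.10 at 24 h and -0.0018 at 72 h, against -0.02 and -0.01 over all genes.

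Among 23 corepressors and their partners, 4 were called at 24 h (17.4%, against 19% of all genes) and 3 at 72 h (against 19.8%). TBL1X, a subunit of the NCOR1 complex, rose by 0.60 ± 0.035 and 0.75 ± 0.031 on the log2 scale. SAP30, a subunit of the SIN3 deacetylase complex, rose by 0.97 and 1.01. CTBP1, a corepressor outside the NCOR1 complex, had group means of 226.5 CPM with vehicle and 96.9 with R1881 at 24 h, and of 226.9 and 100.4 CPM at 72 h, with log2 fold changes of -1.23 ± 0.037 and -1.18 ± 0.031. The CTBP1 change was larger than that of any of the 7 coregulators. The list's median was 0.03 in both experiments.

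Among 18 other acetyltransferases and acetyl-lysine readers, 2 were called in each experiment (11.1%, against 19% and 19.8% of all genes). ATAD2, a bromodomain protein of chromatin, had group means of 30.3 CPM with vehicle and 241.4 with R1881 at 24 h, and of 53.9 and 279.7 CPM at 72 h, with log2 fold changes of 2.98 ± 0.051 and 2.37 ± 0.039. BAZ2B, another bromodomain protein, had -0.73 and -0.61. The list's median was 0.05 at 24 h and 0.06 at 72 h.

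Among the other nuclear receptors, 6 of 30 were called at 24 h (against 19% of all genes) and 9 of 31 at 72 h (against 19.8%). RARB and NR4A1 rose and RARA, HNF4G, NR4A2 and PGR fell in both. RARB, a retinoic acid receptor, had 1.98 ± 0.11 and 2.06 ± 0.086, and RARA, its paralog, had -0.91 ± 0.11 and -0.78 ± 0.092. PGR, the progesterone receptor, fell from a mean of 1.47 CPM to 0.21 at 24 h, and the means at 72 h were 1.12 and 0.108 CPM. The list's median was -0.13 at 24 h and -0.04 at 72 h.

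Of 14 genes known as glucocorticoid-responsive, 8 were called under R1881 at 24 h (57.1%, against 19% of all genes) and 9 at 72 h (64.3%, against 19.8%). Among them 7 were higher at 24 h and 8 at 72 h, and the same 7 were higher in both. NR3C1 itself had 0 or 1 count in every R1881-only library. FKBP5, a cochaperone of steroid receptors, had group means of 38.9 CPM with vehicle and 494.6 with R1881 at 24 h, and of 48.5 and 702.8 CPM at 72 h, with log2 fold changes of 3.65 ± 0.049 and 3.86 ± 0.030. ZBTB16 had 2.05 and 2.61, ERRFI1 1.59 and 2.34, and PER1, a clock gene, 1.61 and 1.92. CRISPLD2 (1.31 and 1.54), CEBPD (0.79 and 2.01) and NFKBIA (1.08 and 1.40) were also called higher in both. SGK1 had 0.51 and 1.84, and FOXO3 had 0.20 and 0.48. The remaining members, added after their values were seen, went the other way in 1 or both experiments or stayed near 0. DUSP1, a phosphatase of MAP kinases, had -0.57 at 24 h and -0.61 at 72 h and was called lower at 72 h. CDKN1C, a cell cycle inhibitor, was called lower at 24 h (-0.72) and had 0.07 at 72 h. KLF9 had -0.13 and -0.24, TSC22D3 had -0.25 and 0.17, and MT2A, a metallothionein, had 0.05 and -0.02. The list's median was 0.65 at 24 h and 1.47 at 72 h, against -0.02 and -0.01 over all genes. FKBP5 and ZBTB16 are also known androgen targets, and all 5 lists were written with earlier results of these data known.

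**Figure D4:**
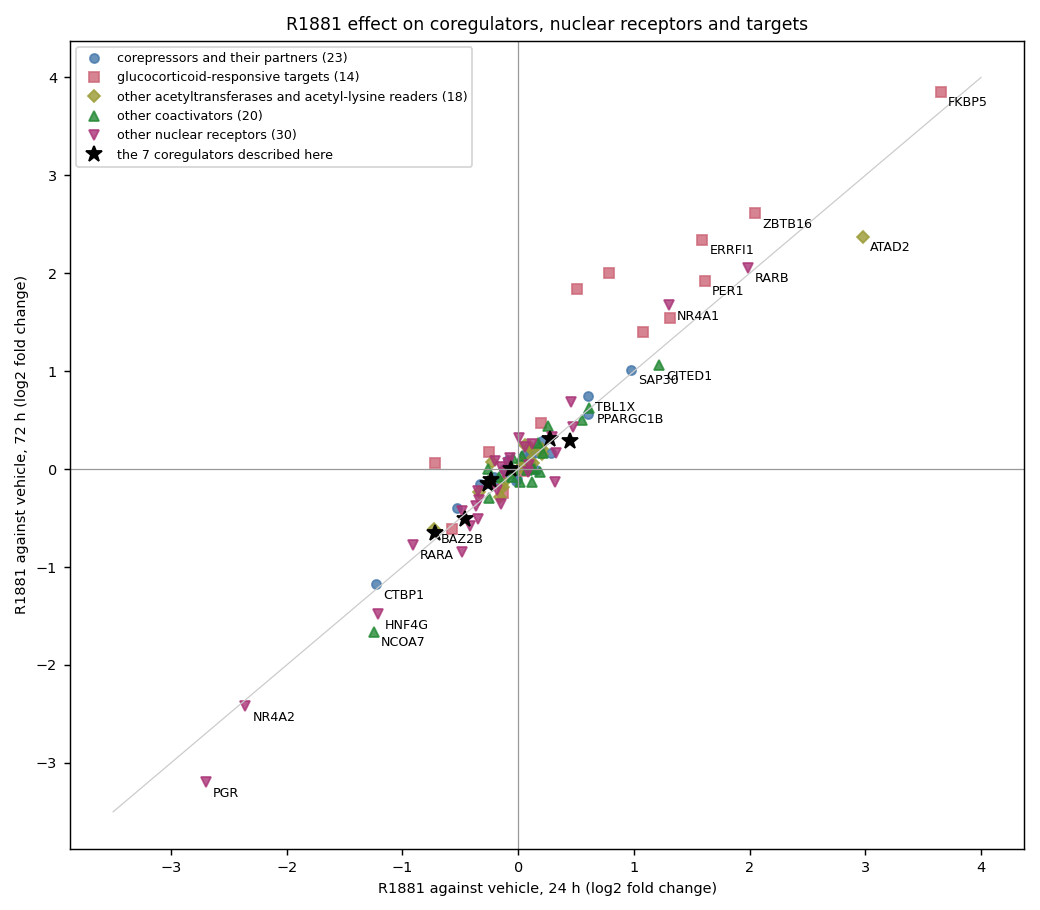
Log2 fold change under R1881 at 24 h (horizontal axis) and at 72 h (vertical axis) for the genes of 5 lists tested in both experiments, with the 7 coregulators as stars and a grey line of equal change. Labels mark the genes chosen by the naming rule (up to 4 in a list and direction), with FKBP5 farthest up (3.65 and 3.86) and PGR farthest down (-2.70 and -3.20). The coregulators lie between -0.71 and 0.45.

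Without R1881, Senexin B called 2 of the 105 list genes tested (1.90%, against 3.79% of all genes) and SNX631 3 of 106 (2.83%, against 4.77%). By list, Senexin B called 1 of 20 other coactivators, 0 of 23 corepressors, 1 of 30 other nuclear receptors, 0 of 18 acetyltransferases and readers and 0 of 14 glucocorticoid-responsive genes. SNX631 called 0 of 20, 0 of 23, 2 of 31, 1 of 18 and 0 of 14. In R1881-treated cells Senexin B called 5 of 105 (4.76%, against 3.12% of all genes) and SNX631 7 of 106 (6.60%, against 4.12%). By list, in the same order, Senexin B then called 1 of 20, 0 of 23, 3 of 30, 0 of 18 and 1 of 14. SNX631 then called 2 of 20, 0 of 23, 1 of 31, 1 of 18 and 3 of 14, the last 3 all lower.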

How the data were processed

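Total RNA of 28 LNCaP libraries was sequenced, and 8 groups were taken from the labels. The authors deposited 1 table of expected counts per gene, not scaled to depth, in which 16.9% of the values above 0 have a fractional part. Per the submitters' processing notes, cutadapt 2.8, STAR 2.7.2b and featureCounts of Subread 2.0.3 were used with GRCh38.p13. The annotation release and the use of strand in counting are not given in the sources used here. The deposited counts were rounded to whole numbers, and 2 non-human entries at 0 counts were dropped.

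Each experiment was fitted with its 4 groups in edgeR 4.0.16 (R 4.3.3; TMM, filterByExpr at minimum count 10 and minimum total 15, quasi-likelihood test), and p values were adjusted over all genes tested. Passing means an FDR under 0.01, and a call also a fold over 1.5. SEs were derived from the quasi-likelihood test, as the size of the log2 fold change divided by the square root of its F statistic. The 95% intervals of log2 fold changes use these SEs. Levels are CPM at TMM effective library sizes. Experiments were compared in 1 fit of all libraries. NR3C1 was compared by pooled counts (exact conditional intervals at 95%, floor of 3 counts over a group) and exact permutation tests. Likeness to NR3C1 was Pearson's r of log2(CPM + 0.5) over group means centred within each experiment, for genes at 10 CPM or more. List genes were named where called alike in both experiments with a group mean of at least 1 CPM, those with the largest mean change first, up to 4 in a list and direction. Alternatives were other scalings, DESeq2 1.42.0, no filter, a replicate block, 1 fit of all libraries, other limits and leaving out each library. Alternatives for NR3C1 were chosen after seeing the data.

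The members and lists were chosen with earlier results of these data known. The main fits did not pair libraries by replicate number. Deviations of libraries with the same number correlated at -0.0698 to 0.189 at 24 h and at -0.0858 to 0.0551 at 72 h. Their median was 0.0205 at 24 h, against -0.0245 for other pairs, and 0.0110 at 72 h, against -8.41e-05. With so few libraries a group, these values cannot settle whether libraries were paired. The series describes biological replicates without saying whether they were separate cultures, so p values measure the spread between these libraries. Totals of 9846481 to 33809270 counts limit the precision, and PCR copies cannot be told from independent molecules. Promoter windows and positions come from RefSeq and GENCODE 29.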

Additional observations from a re-analysis of the deposited data

Results flagged for a closer look

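NR3C1 in vehicle replicate 2 at 72 h (0.229 CPM, 3 counts) lay above the other 3 vehicle libraries of that time, which had 1 count each. NR3C1 in R1881 replicate 4 at 72 h (0.0877 CPM, 1 count) lay apart from the other 3 libraries, which had 0. These are 2 of 32 groups of 4 libraries tested with Dixon's limit, and both rest on 3 counts or fewer. The limit's chance rate of about 1 in 20 groups holds for continuous values and not for tied counts like these. With 3 libraries tied, a small step in the other library is enough to pass it, so these flags do not mark outliers.

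The R1881 effect on NCOA1 at 72 h differed between SNX631-treated and vehicle-treated cells by -0.24 on the log2 scale (FDR 0.00208, edgeR). The R1881 effect on NCOA2 differed by 0.19 in the same comparison (FDR 0.00709, edgeR). Both were singled out because the difference itself passed the test.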

How the results depend on the processing

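With library totals in place of TMM the median of all genes under R1881 shifted to -0.12 on the log2 scale at 72 h and -0.12 under SNX631 (-0.01 in each with TMM), EP300 under R1881 at 72 h went to -0.099, 2 coregulators in place of 1 were called under R1881 at 72 h and 1 in place of 0 under SNX631, and 1 in place of 3 other coactivators was called at 24 h. NCOA1 under R1881 at 72 h (-0.21), EP300 under R1881 with Senexin B (-0.20) and CREBBP under Senexin B with R1881 (-0.18) then passed. With no filter EP300 passed in 3 more comparisons, and in the fit of all 28 libraries it no longer passed in 2. Signs turned only for values near 0: NCOA3 in the 24 h interaction (-0.0031 with DESeq2 size factors, -0.00055 in DESeq2), NCOA3 in the inhibitor effect of 72 h minus 24 h (-0.011 and -0.0086), EP300 under R1881 at 72 h (-0.00020 in DESeq2), and, with no filter, NCOA4 under SNX631 with R1881 (0.0027) and EP300 in the inhibitor effect with R1881 of 72 h minus 24 h (0.0027). The cause was not tested.

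At an FDR of 0.05 with no fold limit, 6 coregulators passed under R1881 at 24 h, 6 at 72 h, 6 under Senexin B and 7 under SNX631. The inhibitors then had 4 and 4 passing without R1881 and 5 and 5 with it, the 72 h interaction 3, and the R1881 effect of 72 h minus 24 h 1. In the lists 15, 16, 20, 10 and 13 genes passed at 24 h (other coactivators, corepressors, other nuclear receptors, acetyltransferases and readers, glucocorticoid-responsive genes) and 11, 15, 22 and 11 for the first 4 at 72 h.

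With each library left out in turn, the counts ranged from 1 to 3 coregulators passing in the 72 h interaction, from 0 to 1 called under R1881 with SNX631, from 0 to 1 passing in the R1881 effect of 72 h minus 24 h, from 1 to 3 other coactivators called at 24 h (1 without R1881 replicate 1) and at 72 h (1 without R1881 replicate 3), and from 1 to 2 acetyltransferases and readers at 72 h (1 without vehicle replicate 2 or R1881 replicate 2 or 3). Log2 values that turned sign ranged as follows. EP300 went from -0.11 to 0.067 under R1881 at 24 h, from -0.041 to 0.055 at 72 h, from -0.056 to 0.13 in their difference and from -0.068 to 0.11 in the inhibitor effect with R1881 of 72 h minus 24 h. NCOA4 went from -0.024 to 0.0021 (SNX631 with R1881), from -0.051 to 0.010 (Senexin B with R1881) and from -0.016 to 0.038 in their difference. NCOA3 went from -0.052 to 0.048 in the inhibitor effect of 72 h minus 24 h. In the 24 h interaction NCOA3 went from -0.092 to 0.061, NCOR1 from -0.055 to 0.039 and CREBBP from -0.032 to 0.086. The other member values kept direction, and the libraries that moved a value across the limit are named beside those results.

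A replicate block moved 2 member values across the limit, both to passing: EP300 with Senexin B (-0.14, FDR 0.00738) and CREBBP with Senexin B in R1881-treated cells (-0.15, FDR 0.00747), and left 36 counts within 1.5 times. At 0 to 8 counts a library, depth limits what can be said of NR3C1.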
